A study of Mus musculus with 40 samples.

Results

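Hematopoietic progenitor cells from newborn mice carrying Flt3-ITD together with NUP98-HOXD13 (NHD13) were set against cells from newborn mice carrying Flt3-ITD alone. The comparison used 4 libraries of each genotype, 8 of the 40 samples in the series, chosen by their labels at birth (P0). Wild-type P0 cells (4 libraries) entered the same fit and are given last for context, and the same pair of genotypes at 14 days of age (P14) gave 4 further libraries each. The P14 fit and the joint fit of both ages also held 4 libraries each of wild type, NUP98-HOXD13 alone, Runx1-HET and FLT3-ITD/Runx1-HET at P14, which add to the estimate of the spread and to no contrast given here. The labels call the cells hematopoietic progenitors or multipotent progenitors. They do not give the tissue, the sorting markers, the mouse lines, the promoter that drives the fusion or the number of Flt3-ITD alleles, nor do they say that the libraries of a group came from separate animals, so p-values measure the spread between these libraries.

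Flt3 encodes a receptor tyrosine kinase of early progenitors, and its internal tandem duplication (ITD) keeps the kinase active without ligand. NHD13 joins the amino-terminal repeats of the nuclear pore protein NUP98 to the homeodomain of HOXD13, and it is known for keeping HOX genes on in progenitors and for blocking their maturation. HOX proteins are homeodomain transcription factors that lie in 4 clusters, A to D, and bind DNA together with PBX and MEIS cofactors. In normal blood formation, genes of the A cluster and some of the B cluster are active in stem and progenitor cells and are turned down as cells mature.

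P0 libraries held 17.3 to 30.9 M counts in Flt3-ITD with NHD13, 28.4 to 39.3 M in Flt3-ITD and 23.6 to 38.8 M in wild type. Levels are given as CPM, counts per M of the library size of tested genes after scaling by edgeR's TMM factor. Kit, the stem cell factor receptor that marks early progenitors, averaged 738 CPM in Flt3-ITD with NHD13 and 619 CPM in Flt3-ITD. A defining progenitor transcript was thus abundant in both. The libraries of Flt3-ITD with NHD13 were less alike (r of log2 CPM 0.937 to 0.967) than those of Flt3-ITD (0.97 to 0.983). In Flt3-ITD with NHD13, libraries 1 and 4 had more Y-linked than Xist counts and libraries 2 and 3 did not, whereas all 4 Flt3-ITD libraries did, so part of the contrast runs along sex. With a sex term 220 genes were higher and 165 lower, but only 179 (71.6%) and 103 (63.2%) of the main fit's calls were among them. With Y-linked libraries alone (2 against 4) there were 223 and 160, with 135 (54%) and 70 (42.9%) of the main fit's calls among them. Below, log2 fold changes are Flt3-ITD with NHD13 over Flt3-ITD, ± SE, from edgeR's quasi-likelihood fit with 4 libraries in each group, and a gene is called where its p, adjusted by Benjamini-Hochberg across the 14359 genes tested at P0, was below 0.05.

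Hoxd13 (ENSMUSG00000001819, GRCm38 chromosome 2, 74668310 to 74671599, plus strand) checked the labels. It had 6, 3.35, 3.71 and 5.6 CPM in the libraries of Flt3-ITD with NHD13, against 0, 0.0271, 0 and 0 CPM in those of Flt3-ITD. That is 420 counts against 1, a ratio of 602 (95% counting interval 107 to 23838), and the groups did not overlap. Nup98 (ENSMUSG00000063550, chromosome 7, 102119398 to 102210176, minus strand) had 46.1, 54.4, 58 and 66 CPM in Flt3-ITD with NHD13, against 29.3, 39.9, 29.4 and 19.3 CPM in Flt3-ITD. It was higher by 0.93 ± 0.20 (adjusted p = 0.0219), and whole-gene counts do not tell the fusion from the native transcript. That call was lost without library 3 or 4 of Flt3-ITD with NHD13 and without library 1, 3 or 4 of Flt3-ITD, where the adjusted p reached 0.0743. It was also lost with only the 8 libraries compared and with Y-linked libraries alone, where the adjusted p reached 0.0852. Flt3 had 285, 786, 532 and 511 CPM in Flt3-ITD with NHD13, against 442, 450, 380 and 563 CPM in Flt3-ITD, with overlapping groups and no call (0.20 ± 0.24, adjusted p = 0.74).

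Of the 14359 genes tested, 250 were higher in Flt3-ITD with NHD13 (1.74% of genes tested) and 163 were lower (1.14%). The median log2 fold change was 1.52 among those called higher, -1.40 among those called lower and 0.025 over all genes tested. Of all genes tested, 7595 had a log2 fold change above 0 and 2254 had an unadjusted p under 0.05. Counts of list members given below stand beside these values and beside the 1.74% and 1.14% called. Every library of Flt3-ITD with NHD13 lay above every Flt3-ITD library for 663 genes (4.62%) and below for 543 (3.78%), and 242 and 147 of the called genes were among them. These counts depended on single libraries. Without library 1 of Flt3-ITD there were 126 higher and 88 lower calls, without library 3 of Flt3-ITD 126 and 78, and without library 4 of Flt3-ITD 158 and 83. Without library 2 of Flt3-ITD with NHD13 there were 322 and 245. A stable part remained: 99 genes were called higher and 41 lower under all 20 alternatives, including each library left out in turn, and 25 and 8 of them are named below by the rule for named genes.

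HOX genes held the largest log2 fold change of all genes tested, and most of those called came from clusters that were nearly silent in Flt3-ITD. Among 39 HOX genes, Hoxd13 included, 19 were tested, 11 were called higher and none lower. Without Hoxd13, 10 of 18 tested members were called higher and all 18 had log2 fold changes above 0, with a median of 2.01 against 0.03 over all genes tested. Summed over the C cluster, the libraries held 43.1 to 64.5 CPM in Flt3-ITD with NHD13, 0.0728 to 0.253 CPM in Flt3-ITD and 0.091 to 0.177 CPM in wild type. The D cluster, the fusion partner's own included, held 4.38 to 7.17 CPM in Flt3-ITD with NHD13, 0 to 0.0522 CPM in Flt3-ITD and 0 to 0.0707 CPM in wild type. The B cluster held 15.2 to 19.9 CPM in Flt3-ITD with NHD13, 1.81 to 5.17 CPM in Flt3-ITD and 2.07 to 4.38 CPM in wild type. The A cluster, the one active in all 3 genotypes, held 234 to 271 CPM in Flt3-ITD with NHD13, 120 to 155 CPM in Flt3-ITD and 139 to 165 CPM in wild type. In every cluster the sums of the libraries of Flt3-ITD with NHD13 lay above those of the other 2 genotypes.

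**Figure D1:**
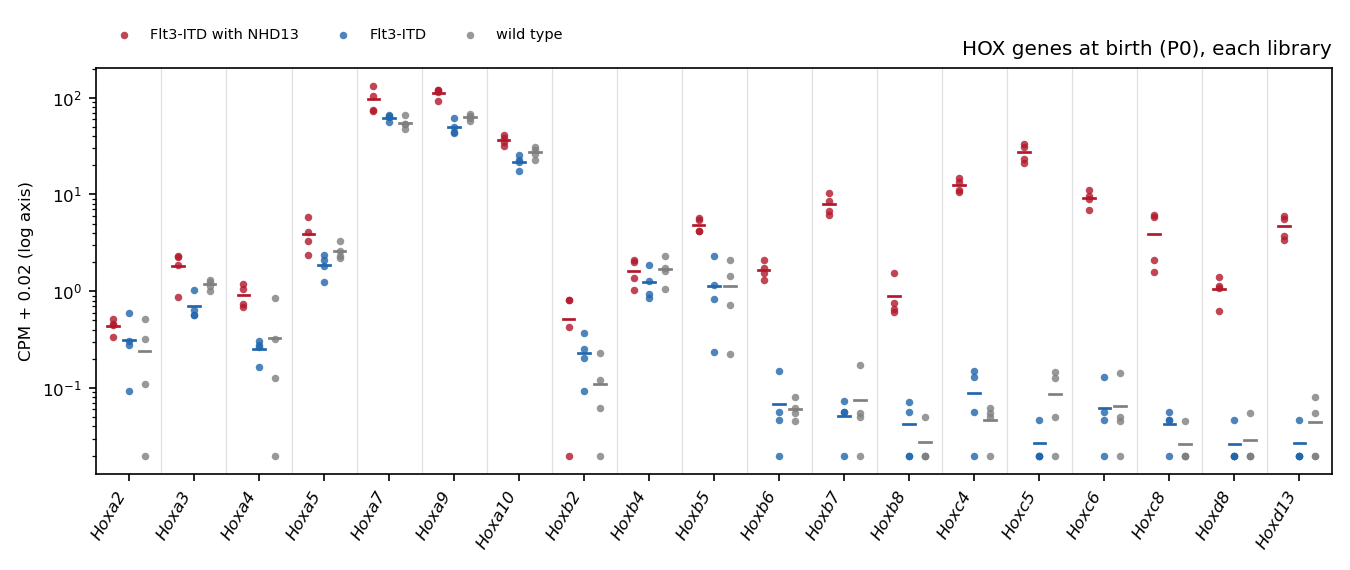
CPM plus 0.02 on a log axis for the 19 tested HOX genes at P0, with 1 point per library and a bar at the mean for Flt3-ITD with NHD13, Flt3-ITD and wild type. Genes of the C cluster, Hoxb6 to Hoxb8, Hoxd8 and Hoxd13 lay near 0 in Flt3-ITD and wild type (at most 0.152 CPM in any library), while the lowest Hoxa10 value of any library was 17.6 CPM.

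Among single HOX genes, Hoxc5 (chromosome 15, 102967443 to 103017429, plus strand) had 21.3, 30.7, 23.1 and 33.3 CPM in Flt3-ITD with NHD13, against 0, 0.0271, 0 and 0 CPM in Flt3-ITD. Its 2438 counts against 1 gave a ratio of 3495 with a wide 95% counting interval, 627 to 138104, and a fitted log2 fold change of 11.15 ± 0.58 (adjusted p = 2.41e-08). Hoxc4 had 1134 counts against 9 (ratio 181, 95% counting interval 94.8 to 396), Hoxc6 803 against 5 (230, 98.2 to 711) and Hoxc8 341 against 3 (163, 55.3 to 794). Hoxc9, not tested at P0, had 38 counts against 0, at least 18.2-fold higher than the floor of 3 counts over the group. The annotated span of Hoxc5 holds those of Hoxc6, Hoxc8 and Hoxc9, so how reads were shared among them is uncertain.

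Hoxb7 had 10.3, 6.14, 8.62 and 6.73 CPM in Flt3-ITD with NHD13, against 0, 0.0541, 0.0361 and 0.0364 CPM in Flt3-ITD, and was higher by 7.82 ± 0.64 (adjusted p = 2.44e-06). Hoxb6 (143 counts against 7) and Hoxb8 (86 against 3) were called higher by 4.87 ± 0.67 and 5.01 ± 0.86, Hoxb8 losing its call with Y-linked libraries alone (adjusted p = 0.0688). Hoxb5, at 449 counts against 152, was not called (2.12 ± 0.61, adjusted p = 0.0797), and Hoxb4, a known regulator of stem cell expansion, had 148 counts against 162 (0.39 ± 0.40, adjusted p = 0.694). Hoxb5os, an antisense transcript, had 917 counts against 83 (4.04 ± 0.47), and since the strand setting of the counts is not given in the sources used here, it cannot be told from its sense neighbours. In the D cluster, Hoxd8 had 98 counts against 1 (6.46 ± 0.89, adjusted p = 0.000635), and Hoxd4, not tested, had 16 against 0, at least 7.65-fold higher than the floor. The antisense Hoxd3os1 had 72 against 0, at least 34.4-fold higher than the floor. Its span holds that of Hoxd8 and overlaps that of Hoxd4, so their reads cannot be told apart without the strand setting either.

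The A cluster genes moved less on the log2 scale and carried more transcript. Per kilobase of exon, Hoxa7 averaged 33.3 CPM in Flt3-ITD with NHD13 and 21.7 CPM in Flt3-ITD, Hoxa9 20 and 8.88 CPM, and Hoxa10 11.2 and 6.68 CPM, while Hoxc5 averaged 8.78 and 0.00219 CPM. Hoxa9, a driver of progenitor self-renewal in leukemia, had 114, 93, 119 and 119 CPM in Flt3-ITD with NHD13, against 49.2, 61.1, 44.4 and 43.4 CPM in Flt3-ITD. It was higher by 1.17 ± 0.15 (adjusted p = 0.000296), with wild type between the groups at 63.2 CPM. Hoxa10 was higher by 0.74 ± 0.17 (adjusted p = 0.0264), a call lost under 7 alternatives: without library 3 of Flt3-ITD with NHD13, without library 1, 3 or 4 of Flt3-ITD, without a filter, with only the 8 libraries compared and with Y-linked libraries alone. Its largest adjusted p there was 0.101. Hoxa7 did not overlap between the groups but was not called (0.62 ± 0.18, adjusted p = 0.0912).

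Among 20 tested HOX cofactors and self-renewal regulators, 5 were called higher and none lower, with a median of 0.39. Pbx3, a homeodomain cofactor of HOX proteins, stood out. It had 53.8, 65.1, 72.5 and 65.9 CPM in Flt3-ITD with NHD13, against 2.82, 2.27, 2.24 and 2.29 CPM in Flt3-ITD, and was higher by 4.74 ± 0.23 (adjusted p = 1.6e-08). Of other cofactors, Meis1 had a log2 fold change of 0.11 and Pbx2 of 0.34, and neither was called. Mecom, a stem cell transcription factor and leukemia oncogene, had 75.9, 85.4, 95.5 and 99.5 CPM in Flt3-ITD with NHD13, against 38.5, 44.2, 31.4 and 25.5 CPM in Flt3-ITD (1.35 ± 0.20, adjusted p = 0.000985). Mllt3, a stem cell maintenance factor and MLL fusion partner, was higher by 1.01 ± 0.15 (adjusted p = 0.00149). Gata2, a transcription factor of stem and mast cells, was higher by 1.0 ± 0.21 (adjusted p = 0.0167) and Hlf, a stem cell transcription factor, by 0.57 ± 0.12 (adjusted p = 0.0216). Gata2 lost its call without library 1, 3 or 4 of Flt3-ITD and with Y-linked libraries alone (adjusted p up to 0.0885). Hlf lost it without library 3 of Flt3-ITD with NHD13, without library 1 or 3 of Flt3-ITD, without a filter, with a sex term, with only the 8 libraries compared and with Y-linked libraries alone (up to 0.109).

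To show sequence at the start of genes that moved, the RefSeq promoter windows (GRCm38.p6, 250 bases before to 50 after the start) were read for the genes the table holds: 191 called higher, 118 called lower and 10571 of all tested. The motif TGATNNAT, the composite letters to which PBX and HOX proteins are known to bind together, was searched on both strands. It stood in 7.33% of windows of genes called higher, in 8.47% of those called lower and in 4.07% of all. The motif is rich in A and T, and the windows of called genes also differed in base content, with a median G+C of 57.7% and 57.2% against 60.3% over all and a median of 12, 12 and 20 CpG. Of the 3 other motifs searched on both strands, TTTATNG stood in 8.9%, 9.32% and 6.65% of the 3 sets, CANNTG in 66%, 65.3% and 63.6%, and TTCNNNGAA in 6.28%, 6.78% and 6.85%. Matches of different motifs may overlap. Among genes called under every alternative, TGATNNAT stood in 8 of 75 windows of those higher (10.7%) and in 3 of 29 of those lower (10.3%). In the same sets TTTATNG stood in 9.33% and 10.3%, CANNTG in 74.7% and 58.6%, and TTCNNNGAA in 6.67% and 17.2%. Their median G+C was 56.3% and 55.3%, with a median of 9 and 7 CpG. The 3 lower genes with TGATNNAT were Mmrn1, Gimap4 and Tnfsf8, and the 8 higher ones were Sptssb, C1qtnf7, A930003A15Rik, Tnip3, Lin28b, Mecom, Pirb and Gsap. The sequences of 3 higher genes are given with the match in capitals: Lin28b (chr10:45470152-45470451, minus strand), Mecom (chr3:30509710-30510009, minus strand) and Sptssb (chr3:69859845-69860144, minus strand). They are followed by Mab21l2 (chr3:86548234-86548533, minus strand) and Igf1 (chr10:87860861-87861160, plus strand), which are among the strongest named changes and whose windows hold no match.
Lin28b: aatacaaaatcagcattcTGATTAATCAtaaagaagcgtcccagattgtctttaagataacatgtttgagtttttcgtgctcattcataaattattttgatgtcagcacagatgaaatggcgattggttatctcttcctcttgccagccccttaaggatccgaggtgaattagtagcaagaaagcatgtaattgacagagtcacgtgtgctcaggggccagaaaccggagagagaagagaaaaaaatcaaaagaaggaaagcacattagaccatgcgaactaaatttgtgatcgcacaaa
Mecom: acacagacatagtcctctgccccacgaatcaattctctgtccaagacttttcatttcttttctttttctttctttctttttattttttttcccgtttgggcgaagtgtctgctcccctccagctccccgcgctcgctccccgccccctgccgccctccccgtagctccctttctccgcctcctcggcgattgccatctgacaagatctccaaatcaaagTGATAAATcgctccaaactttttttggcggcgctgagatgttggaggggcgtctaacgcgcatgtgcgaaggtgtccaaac
Sptssb: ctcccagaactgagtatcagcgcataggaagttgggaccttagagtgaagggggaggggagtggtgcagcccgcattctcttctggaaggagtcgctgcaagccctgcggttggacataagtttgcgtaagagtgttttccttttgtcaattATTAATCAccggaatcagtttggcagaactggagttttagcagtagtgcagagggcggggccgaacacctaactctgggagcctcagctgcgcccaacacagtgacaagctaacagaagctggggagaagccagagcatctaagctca
Mab21l2: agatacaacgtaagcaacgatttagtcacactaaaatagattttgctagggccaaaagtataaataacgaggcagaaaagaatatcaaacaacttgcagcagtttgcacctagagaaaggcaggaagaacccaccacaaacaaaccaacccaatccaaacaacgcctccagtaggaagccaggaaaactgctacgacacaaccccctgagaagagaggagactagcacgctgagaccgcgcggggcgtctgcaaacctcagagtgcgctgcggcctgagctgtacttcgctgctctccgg
Igf1: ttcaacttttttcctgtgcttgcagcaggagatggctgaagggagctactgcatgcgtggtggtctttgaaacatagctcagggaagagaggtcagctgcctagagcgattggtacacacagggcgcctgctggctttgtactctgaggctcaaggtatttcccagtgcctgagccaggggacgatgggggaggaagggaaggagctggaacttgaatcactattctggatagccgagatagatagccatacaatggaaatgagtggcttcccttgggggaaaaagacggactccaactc
In the Lin28b window a copy of the motif on either strand overlaps the other. A match describes the letters only.

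Outside the HOX clusters, the strongest named increases included secreted factors, a receptor and developmental genes. Igf1, the insulin-like growth factor, had 481, 190, 409 and 406 CPM in Flt3-ITD with NHD13, against 10.2, 14.1, 12.6 and 17.2 CPM in Flt3-ITD (4.78 ± 0.30, adjusted p = 2.58e-07). Inhba, which encodes the activin A subunit, had 45, 126, 36 and 55.2 CPM in Flt3-ITD with NHD13, against 1.17, 0.731, 0.794 and 0.619 CPM in Flt3-ITD (6.28 ± 0.42, adjusted p = 3.01e-07). In both genes every library of Flt3-ITD with NHD13 lay far above every Flt3-ITD library. Epha3, an ephrin receptor, had 17.4, 16.4, 24.4 and 30.1 CPM in Flt3-ITD with NHD13, against 0.0522, 0.0541, 0 and 0.182 CPM in Flt3-ITD (8.22 ± 0.53). Mab21l2, a gene of eye and body wall development, had 18.3, 47.2, 30.7 and 33.5 CPM in Flt3-ITD with NHD13, against 0.0261, 0.244, 0.108 and 0 CPM in Flt3-ITD (8.30 ± 0.56). Limch1, an actomyosin regulator, was higher by 6.35 ± 0.63 and Tmem47, a membrane protein of cell junctions, by 5.75 ± 0.56. All 6 passed under every alternative.

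Cd1d2, a non-classical antigen-presenting molecule, differed from these. It had 1.22, 19.7, 9.12 and 13.4 CPM in Flt3-ITD with NHD13, against 0.365, 0.379, 0.181 and 0.473 CPM in Flt3-ITD, while wild-type libraries had 0.849, 15, 13.7 and 0.637 CPM. High and low libraries thus occurred within genotypes, and its call (4.93 ± 1.15, adjusted p = 0.0427) was lost under 11 alternatives. These were leaving out library 2, 3 or 4 of Flt3-ITD with NHD13 or any 1 Flt3-ITD library, no filter, the replicate block, the sex term and Y-linked libraries alone, with an adjusted p up to 0.126.

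The strongest named decreases included transcripts of lymphoid and myeloid cells and the MHC class II gene H2-Eb1. Nkg7, a granule protein of cytotoxic lymphocytes, had 36.5, 39.7, 28.7 and 32 CPM in Flt3-ITD with NHD13, against 183, 106, 229 and 184 CPM in Flt3-ITD (-2.36 ± 0.20, adjusted p = 3.92e-06). Id3, an inhibitor of E-protein transcription factors, had 15.2, 10.5, 5.72 and 14.7 CPM in Flt3-ITD with NHD13, against 70.1, 62.5, 102 and 70 CPM in Flt3-ITD (-2.73 ± 0.32, adjusted p = 0.000133). In both, the highest library with NHD13 was under the lowest Flt3-ITD library. Sparc (matricellular protein, -3.40 ± 0.44), S1pr3 (sphingosine phosphate receptor, -3.14 ± 0.46) and Trem1 (myeloid activating receptor, -2.33 ± 0.33) were lower under every alternative. Plbd1 (a lysosomal phospholipase-like protein, -5.43 ± 0.77), Naaa (a lysosomal amidase, -2.63 ± 0.50) and Ccr2 (a monocyte chemokine receptor, -2.54 ± 0.44) were lower and lost their calls with Y-linked libraries alone, at adjusted p = 0.0733, 0.101 and 0.0616 in that order.

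Ly6d, a marker of early B lineage priming, had 0.478, 0.243, 1.38 and 0.753 CPM in Flt3-ITD with NHD13, against 10.7, 8.42, 61.3 and 28.5 CPM in Flt3-ITD (-5.16 ± 0.98, adjusted p = 0.0147). Wild-type libraries had 0.38 to 5.96 CPM, all below those of Flt3-ITD. H2-Eb1, an MHC class II chain, had 0.85, 4.56, 1.04 and 4.31 CPM in Flt3-ITD with NHD13, against 8.43, 30.1, 79.3 and 36.4 CPM in Flt3-ITD (-3.86 ± 0.86, adjusted p = 0.0353). Library 3 of Flt3-ITD was the highest for both genes. The Ly6d call was lost without library 4 of Flt3-ITD with NHD13, without a filter, with a sex term and with Y-linked libraries alone (adjusted p up to 0.0805). The H2-Eb1 call was lost without any 1 library of Flt3-ITD with NHD13, without library 2, 3 or 4 of Flt3-ITD and in the same 3 further settings (up to 0.175). H2-Ob, another MHC class II chain, went the other way. It averaged 114 CPM in Flt3-ITD with NHD13 and 47.5 CPM in Flt3-ITD (1.27 ± 0.19, adjusted p = 0.00109), and was called higher under every alternative.

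**Figure D2:**
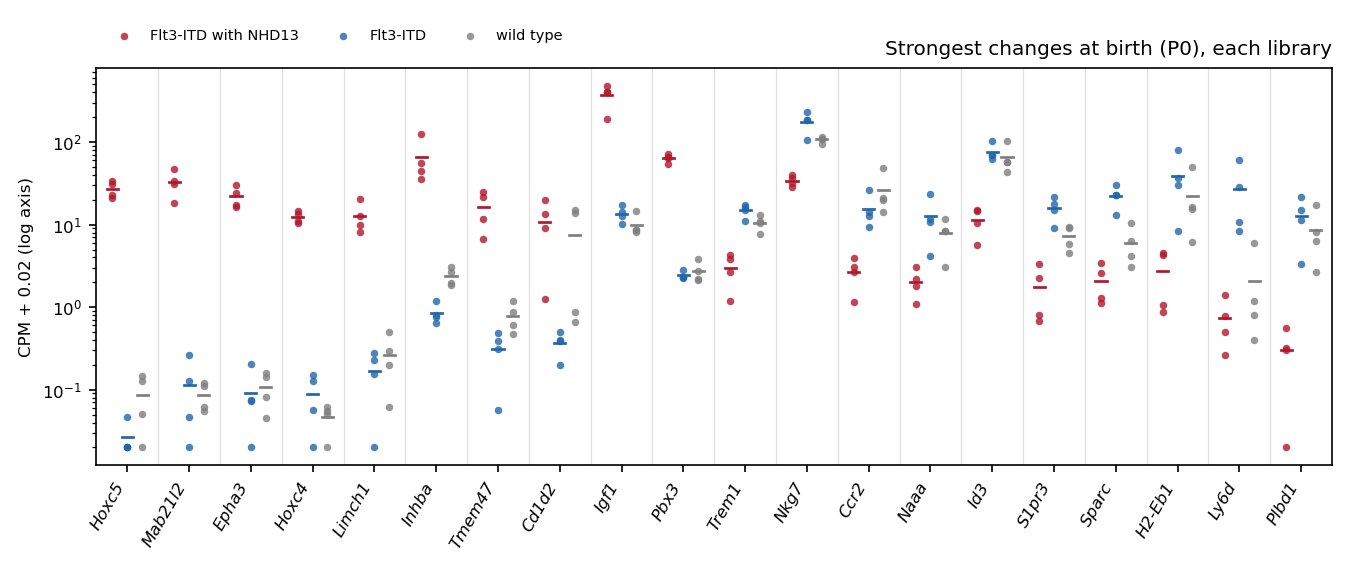
CPM plus 0.02 on a log axis at P0 for the 10 genes with the highest and the 10 with the lowest log2 fold change among called genes with no overlap and a mean log2 CPM of at least 2, with 1 point per library and a bar at the mean for Flt3-ITD with NHD13, Flt3-ITD and wild type. Igf1 reached 190 to 481 CPM in Flt3-ITD with NHD13 against 10.2 to 17.2 CPM in Flt3-ITD, and Cd1d2 is split within wild type.

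Genes of early progenitors moved in both directions. Of 24 tested hematopoietic stem cell genes, 6 were called higher and 2 lower, with a median of 0.19. Nupr1, a stress-responsive chromatin protein, had 10.9, 16.1, 12 and 11.2 CPM in Flt3-ITD with NHD13, against 2.66, 2.33, 1.05 and 2.66 CPM in Flt3-ITD (2.52 ± 0.33, adjusted p = 0.000389). Slamf1, which encodes the stem cell marker CD150, was higher by 1.66 ± 0.36 (adjusted p = 0.0221), and Mecom, Mllt3 and Hlf were also among those called higher. The 2 lower members were surface proteins. Cd34, the sialomucin of progenitors, had 1258, 1124, 1190 and 1084 CPM in Flt3-ITD with NHD13, against 1823, 1823, 1831 and 1904 CPM in Flt3-ITD (-0.66 ± 0.11, adjusted p = 0.00246), with no overlap. Esam, an endothelial and stem cell adhesion molecule, had 23.3, 54, 31.6 and 19.8 CPM in Flt3-ITD with NHD13, against 83.1, 91, 55.7 and 73.2 CPM in Flt3-ITD (-1.24 ± 0.29, adjusted p = 0.0343). Slamf1 lost its call without library 4 of Flt3-ITD with NHD13 and without library 1 or 3 of Flt3-ITD (up to 0.082). Esam lost it without library 1, 3 or 4 of Flt3-ITD with NHD13, library 1, 2 or 4 of Flt3-ITD or library 1 of wild type (up to 0.0957).

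Fetal and adult progenitor genes both had members that were higher. Of 12 tested fetal progenitor genes, 3 were called higher and none lower (median 0.52). Lin28b, the RNA-binding protein that sustains fetal blood programs, had 54.6, 40.1, 68.6 and 63.9 CPM in Flt3-ITD with NHD13, against 19.2, 17.8, 14.4 and 20.3 CPM in Flt3-ITD (1.66 ± 0.22, adjusted p = 0.000387). H19, an imprinted growth-regulating RNA, had 65.7, 89.1, 50.1 and 45.7 CPM in Flt3-ITD with NHD13, against 12.9, 13.9, 5.2 and 9.03 CPM in Flt3-ITD (2.61 ± 0.41, adjusted p = 0.00209). Igf2, its imprinted neighbour and a fetal growth factor, was higher by 2.63 ± 0.63 (adjusted p = 0.0355). Igf2 lost its call under 8 alternatives, without library 2 or 3 of Flt3-ITD with NHD13, without any 1 Flt3-ITD library, without a filter and with a sex term (up to 0.125). Of 15 tested adult progenitor genes, 2 were called higher and none lower (median 0.29). These were Mllt3 and Klf6, an immediate early transcription factor, which had 154, 311, 154 and 171 CPM in Flt3-ITD with NHD13, against 83.8, 92.5, 81.4 and 87.6 CPM in Flt3-ITD (1.20 ± 0.20, adjusted p = 0.00272).

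Genes of granulocyte-monocyte and lymphoid priming tended below 0. Of 21 tested granulocyte-monocyte progenitor genes, 3 were called lower and none higher, with a median of -0.44 and 5 of 21 above 0. Mpo, the myeloperoxidase of early granulocytes, had 330, 727, 665 and 364 CPM in Flt3-ITD with NHD13, against 1285, 1081, 1449.9 and 1829.5 CPM in Flt3-ITD (-1.44 ± 0.25, adjusted p = 0.00487). Irf8, a transcription factor of monocytes and dendritic cells, had 23.9, 38.3, 30.4 and 26.8 CPM in Flt3-ITD with NHD13, against 45.1, 72.9, 99.6 and 69 CPM in Flt3-ITD (-1.26 ± 0.24, adjusted p = 0.00859). Csf1r, the macrophage colony-stimulating factor receptor, had 14.8, 39.2, 36 and 15.5 CPM in Flt3-ITD with NHD13, against 56.9, 64.3, 56.1 and 65.3 CPM in Flt3-ITD (-1.20 ± 0.27, adjusted p = 0.0243). Csf1r lost its call without library 4 of Flt3-ITD with NHD13, without any 1 Flt3-ITD library and with only the 8 libraries compared (up to 0.0654). In these bulk samples, fewer cells of a type and less RNA per cell cannot be told apart. Csf1r is also on the macrophage marker list, of whose 10 tested members it was the 1 called lower. That list summed to 27.7 to 52.4 CPM in Flt3-ITD with NHD13, against 77.2 to 82.5 CPM in Flt3-ITD. Csf1r itself held 14.8 to 39.2 CPM and 56.1 to 65.3 CPM of these sums, so in Flt3-ITD most of the sum was Csf1r. The median log2 fold change of the 10 members was -0.42, with 3 above 0. The part of macrophages in the result was not tested.

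Of 20 tested lymphoid priming genes, 1 was called lower, Cd79a of the B cell receptor, and the median was -0.72. Cd79a had 8.81, 3.22, 9.15 and 1.97 CPM in Flt3-ITD with NHD13, against 10.6, 14, 33 and 28.9 CPM in Flt3-ITD and 2.51 to 5.87 CPM in wild type (-1.90 ± 0.48, adjusted p = 0.0459). Its call was lost under 11 alternatives: without library 2 or 4 of Flt3-ITD with NHD13, library 3 or 4 of Flt3-ITD or library 1, 2 or 4 of wild type, without a filter, with a sex term, with only the 8 libraries compared and with Y-linked libraries alone (up to 0.152). Cd79a was also the 1 member called of 3 tested B cell markers, a list that summed to 144 to 320 CPM in Flt3-ITD with NHD13 and 165 to 253 CPM in Flt3-ITD. Its partner chain Cd79b averaged 189 CPM in Flt3-ITD with NHD13 and 186 CPM in Flt3-ITD and was not called (adjusted p = 0.977). Ighm, the heavy chain locus, averaged 295 CPM in Flt3-ITD with NHD13 and 340 CPM in Flt3-ITD, with overlapping groups (-0.21 ± 0.26). Of the other lymphocyte markers, Trbc2 of the T cell receptor was lower by -0.97 ± 0.24 (adjusted p = 0.0442) and Klrd1 of NK cells by -3.10 ± 0.72 (adjusted p = 0.0298). They make up 2 of 4 tested T and NK cell markers, a list that summed to 48.1 to 78.5 CPM in Flt3-ITD with NHD13 and 63.7 to 87.7 CPM in Flt3-ITD. Trbc2 lost its call under 12 alternatives, without any 1 library but library 2 of Flt3-ITD with NHD13 and library 1 of Flt3-ITD, with a sex term and with only the 8 libraries compared (adjusted p up to 0.143). Klrd1 lost it under 7, without library 1 or 3 of Flt3-ITD with NHD13, without library 3 or 4 of Flt3-ITD, with a sex term, with only the 8 libraries compared and with Y-linked libraries alone (up to 0.165).

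Megakaryocyte genes were higher in part. Of 16 tested, 3 were called higher and none lower, and 15 had log2 fold changes above 0, with a median of 0.47. Treml1, a receptor stored in platelet granules, had 8.66, 11.6, 9.37 and 13.7 CPM in Flt3-ITD with NHD13, against 2.82, 2, 3.36 and 3.9 CPM in Flt3-ITD (1.85 ± 0.30, adjusted p = 0.00265). Itga2b, the platelet integrin CD41 that early progenitors also carry, had 31.9, 43, 42.3 and 49.6 CPM in Flt3-ITD with NHD13, against 24.7, 17.1, 15.4 and 16.1 CPM in Flt3-ITD (1.19 ± 0.20, adjusted p = 0.00282). Its partner Itgb3 was higher by 1.76 ± 0.30 (adjusted p = 0.00414), with 0.0565 where only Y-linked libraries were used. Of 15 erythroid progenitor genes 1 was called higher, Car1, a carbonic anhydrase, at 4.41, 12.3, 6.07 and 34.8 CPM in Flt3-ITD with NHD13, against 1.33, 0.677, 0.361 and 1.27 CPM in Flt3-ITD (3.97 ± 0.86, adjusted p = 0.0264). That call was lost without any 1 Flt3-ITD library, without a filter, with the replicate block and with Y-linked libraries alone (up to 0.098). Erythroblast markers summed to 301 to 604 CPM in Flt3-ITD with NHD13, against 167 to 309 CPM in Flt3-ITD, none of the 6 tested being called. Their part in the erythroid values was not tested. Of 14 mast cell, basophil and eosinophil genes none was called by edgeR, with 2 at an unadjusted p under 0.05 and 1 called lower by DESeq2. Such a p was reached by 2254 of all 14359 genes tested. The most abundant, the tryptase gene Tpsb2, ranged from 325 to 3362 CPM in Flt3-ITD with NHD13 and from 432 to 3642 CPM in Flt3-ITD.

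Type I interferon-stimulated genes lay above 0 almost as a whole. Of 43 tested, 42 had a log2 fold change above 0, 21 had an unadjusted p under 0.05, 4 were called higher and none lower, and the median was 0.58. Over all 14359 genes tested, 7595 lay above 0, 2254 had an unadjusted p under 0.05 and 1.74% were called higher. Rsad2, the antiviral protein viperin, had 97.5, 137, 147 and 104 CPM in Flt3-ITD with NHD13, against 46.5, 72.9, 43.9 and 61.6 CPM in Flt3-ITD (1.11 ± 0.28, adjusted p = 0.0433). Ifit2, an interferon-induced RNA-binding protein, had 68.4, 54.6, 86.1 and 81.7 CPM in Flt3-ITD with NHD13, against 34, 47.7, 34.9 and 39.5 CPM in Flt3-ITD (0.90 ± 0.20, adjusted p = 0.0218). Sp100, a nuclear body protein, was higher by 0.72 ± 0.17 (adjusted p = 0.0339) and Trim30a, a tripartite motif protein, by 0.71 ± 0.16 (adjusted p = 0.0235). Without library 1 or library 3 of Flt3-ITD none of the 43 was called, and without library 2 of Flt3-ITD 6 were; DESeq2 called 7. With a sex term 2 were called and with Y-linked libraries alone 1, and Rsad2, Sp100 and Trim30a lost their calls in both settings (adjusted p up to 0.118). Rsad2 also lost its call without a filter and Trim30a with only the 8 libraries compared. Library 3 of Flt3-ITD with NHD13 was also needed for all 4 calls, library 4 of that genotype for Rsad2 and Ifit2, its library 2 for Rsad2, library 4 of Flt3-ITD for all but Trim30a, and library 1 of wild type for Rsad2 and Sp100. The largest adjusted p with a library left out was 0.147. Of 22 tested genes of MHC class I and the interferon-gamma response, 1 was called higher, the GTPase Irgm1 (0.59 ± 0.15, adjusted p = 0.0471), a call lost under 16 of 20 alternatives, among them each library left out but library 4 of Flt3-ITD with NHD13 (up to 0.164).

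Of 33 tested cell cycle genes, 3 were called lower and none higher, 9 had log2 fold changes above 0, and the median was -0.21. Mki67, the proliferation marker, had 5.15, 8.7, 13.5 and 10.7 CPM in Flt3-ITD with NHD13, against 24.9, 42.5, 18.4 and 23.9 CPM in Flt3-ITD (-1.53 ± 0.34, adjusted p = 0.0264). Cenpe, a kinetochore motor, was lower by -1.09 ± 0.27 (adjusted p = 0.0415) and Ccne1, cyclin E1, by -0.79 ± 0.20 (adjusted p = 0.0459). The abundant replication genes moved less: Mcm2 to Mcm7 had log2 fold changes of -0.33 to -0.11, none of them called. All 21 tested MYC and ribosome biogenesis genes lay below 0 (median -0.30), and 2 were called lower. Myc had 396, 321, 539 and 368 CPM in Flt3-ITD with NHD13, against 766, 581, 693 and 829 CPM in Flt3-ITD (-0.82 ± 0.19, adjusted p = 0.0335), and Nolc1, a nucleolar chaperone, was lower by -0.93 ± 0.21 (adjusted p = 0.0264). None of the 3 cell cycle calls stood without library 4 of Flt3-ITD with NHD13 or library 1, 2 or 4 of Flt3-ITD, and neither of the 2 growth calls without library 4 of Flt3-ITD with NHD13 or library 1 or 4 of Flt3-ITD. Library 1 of Flt3-ITD with NHD13 was also needed for Mki67, Cenpe, Myc and Nolc1, library 2 for Cenpe, Ccne1 and Myc, and library 3 for Cenpe and Ccne1. Library 3 of Flt3-ITD was needed for Cenpe, Ccne1 and Myc and its library 2 for Nolc1, and wild-type libraries 1 and 4 for Cenpe and all 4 for Ccne1. With Y-linked libraries alone Mki67, Cenpe and Ccne1 lost their calls, with a sex term Ccne1 and Myc, and with only the 8 libraries compared Ccne1 and Nolc1. Ccne1 also lost its call without a filter and with the replicate block. The largest adjusted p over all alternatives was 0.166 for Ccne1 and 0.103 for Myc.

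Signalling lists downstream of the Flt3 kinase are set beside all 14359 genes tested. Of those, 1.74% were called higher, 1.14% were called lower and 2254 had an unadjusted p under 0.05. Of 15 tested STAT5 target genes, 2 were called lower and none higher (median -0.23): Myc and Id1, another E-protein inhibitor, which had 34.1, 16.4, 38.7 and 13.3 CPM in Flt3-ITD with NHD13, against 80.3, 75.1, 65.7 and 54.9 CPM in Flt3-ITD (-1.43 ± 0.29, adjusted p = 0.0129). Of 12 MAPK feedback genes none was called by edgeR, with 1 at an unadjusted p under 0.05 and 1 called lower by DESeq2 (median 0.22). Dusp6, a MAPK phosphatase, ranged from 98 to 268 CPM in Flt3-ITD with NHD13 and from 63.7 to 230 CPM in Flt3-ITD. Of 14 immediate early genes 1 was called, Klf6, although the list's median was 0.95 and 5 members had an unadjusted p under 0.05. Of 21 homing and adhesion genes, 2 were called higher, Epha3 and the leukocyte integrin subunit Itgb2 (0.85 ± 0.18, adjusted p = 0.0189), and 2 lower, Ccr2 and Esam. Itgb2 lost its call without library 1 or 4 of Flt3-ITD, with a sex term, with only the 8 libraries compared and with Y-linked libraries alone (up to 0.075).

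**Figure D3:**
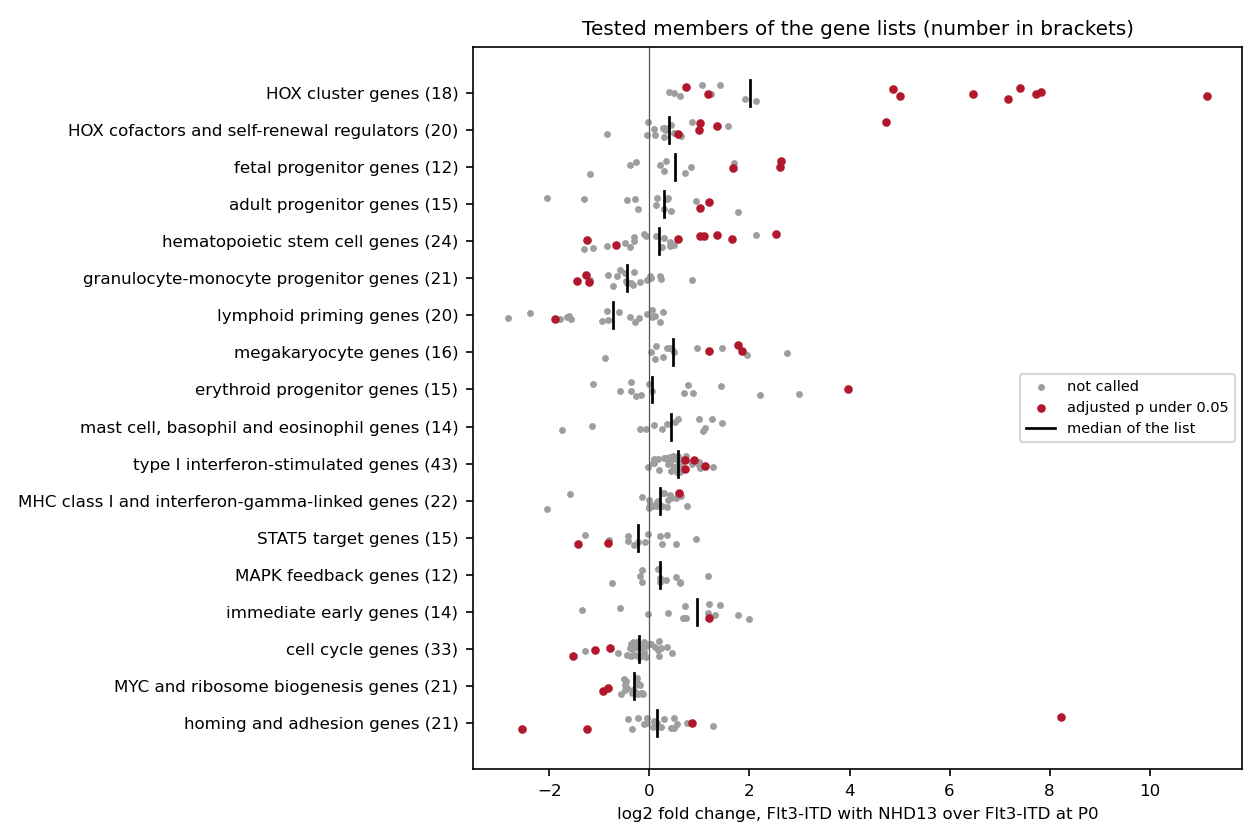
Log2 fold change at P0, Flt3-ITD with NHD13 over Flt3-ITD, of each tested member of the 18 pathway and lineage lists, with 1 point per gene, called genes in red and a black bar at the median of the list. HOX genes reach 11.15, and the 43 interferon-stimulated genes lie close together around their median of 0.58.

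Markers of dendritic cells, neutrophils, erythroblasts, endothelium, hepatocytes and stroma held no gene called by edgeR in either direction. In that order, 10, 4, 6, 6, 9 and 2 members were tested, and 4, 0, 1, 5, 0 and 0 had an unadjusted p under 0.05. Over all 14359 genes tested 2254 did. DESeq2 called 3 dendritic cell genes and 1 endothelial gene lower and 1 erythroblast gene higher. The 10 dendritic cell markers had a median log2 fold change of -0.92, with 3 above 0. All 4 of them with an unadjusted p under 0.05 were lower. The part of dendritic cells in the result was not tested. Summed endothelial markers were 135 to 248 CPM in Flt3-ITD with NHD13, against 113 to 135 CPM in Flt3-ITD. Single members did not share 1 direction: the median log2 fold change of the 6 tested was -0.60. Of these, 2 were higher and 3 lower at an unadjusted p under 0.05. Summed hepatocyte markers were 25.9 to 59.1 CPM in Flt3-ITD with NHD13 and 30.6 to 43 CPM in Flt3-ITD, and the 923 CPM of 1 wild-type library does not enter the contrast itself. Of the stromal markers 1, and of the neutrophil markers 2, were at 0.

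Among the genes called under every alternative were several outside the rule for named genes, named here after their values were seen. Ddx4, an RNA helicase known from germ cells, had 332, 181, 213 and 294 CPM in Flt3-ITD with NHD13, against 72, 55.8, 69.2 and 63.5 CPM in Flt3-ITD (1.97 ± 0.20). Klhl4, a kelch-like adaptor, had 197, 145, 202 and 175 CPM in Flt3-ITD with NHD13, against 10.6, 13.7, 3.94 and 12.7 CPM in Flt3-ITD (4.13 ± 0.31). Fcer1g, the signalling chain of Fc receptors, had 151, 300, 157 and 168 CPM in Flt3-ITD with NHD13, against 46.9, 40.9, 75.9 and 49.8 CPM in Flt3-ITD (1.86 ± 0.23). Developmental transcription regulators were also among them: Eya1 was higher by 1.73 ± 0.21, Sox6 by 2.26 ± 0.31 and Zfpm2, a GATA cofactor, by 8.32 ± 0.55. The growth factor genes Hgf (1.02 ± 0.19) and Pdgfc (2.50 ± 0.48) were also in this set. Lower genes of the set included Serpinf1, a secreted serpin, at 42.3, 71.2, 48.5 and 35.3 CPM in Flt3-ITD with NHD13, against 147, 149, 147 and 131 CPM in Flt3-ITD (-1.54 ± 0.18). Gimap4, a lymphocyte GTPase, was lower by -2.14 ± 0.23, the peptidase Dpp4 by -1.63 ± 0.20, Mmrn1, a platelet and endothelial matrix protein, by -1.49 ± 0.21 and the intermediate filament gene Vim by -0.89 ± 0.14.

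The same contrast at P14 used separate libraries and a separate count table, and levels below are normalized within each age. There 914 genes were called higher (6.35% of genes tested) and 1034 lower (7.18%). The P14 fit held 24 libraries and the P0 fit 12, so the counts of the 2 ages are not directly comparable. In the joint fit of both ages the P0 contrast gave 874 higher and 957 lower. Of 246 genes called higher at P0 and tested at both ages, 186 (75.6%) were called higher at P14, which is 21.7% of the P14 list. Of 157 called lower at P0, 101 (64.3%) were called lower at P14, 9.99% of that list. Across the 13709 genes tested at both ages, log2 fold changes had Pearson r 0.59 and Spearman rho 0.32 as a description, since genes are not independent replicates, and 59.6% had the same sign. Of the genes called under all alternatives at P0, 90 of 99 were called higher and 34 of 40 tested lower at P14.

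For 6 named genes, picked after their values were seen, the log2 fold changes at the 2 ages were close. Igf1 was higher by 4.78 at P0 and 4.84 at P14, H19 by 2.61 and 2.60, and Hoxa9 by 1.17 and 1.29. Nkg7 was at -2.36 and -2.58, S1pr3 at -3.14 and -3.20, and Irf8 at -1.26 and -1.29. None of these 6 passed the test of the difference by edgeR or DESeq2 or had an unadjusted p under 0.05. The lowest adjusted p by edgeR was that of Hoxa9 (0.767), and such a p does not show that the effects were equal. Of the 43 interferon-stimulated genes, 38 were called higher at P14 and 4 at P0, each in its own fit. The joint fit of both ages called 10 at P0. None of the 43 passed edgeR's test of the difference between ages, with 15 at an unadjusted p under 0.05 and 1 passing by DESeq2.

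**Figure D4:**
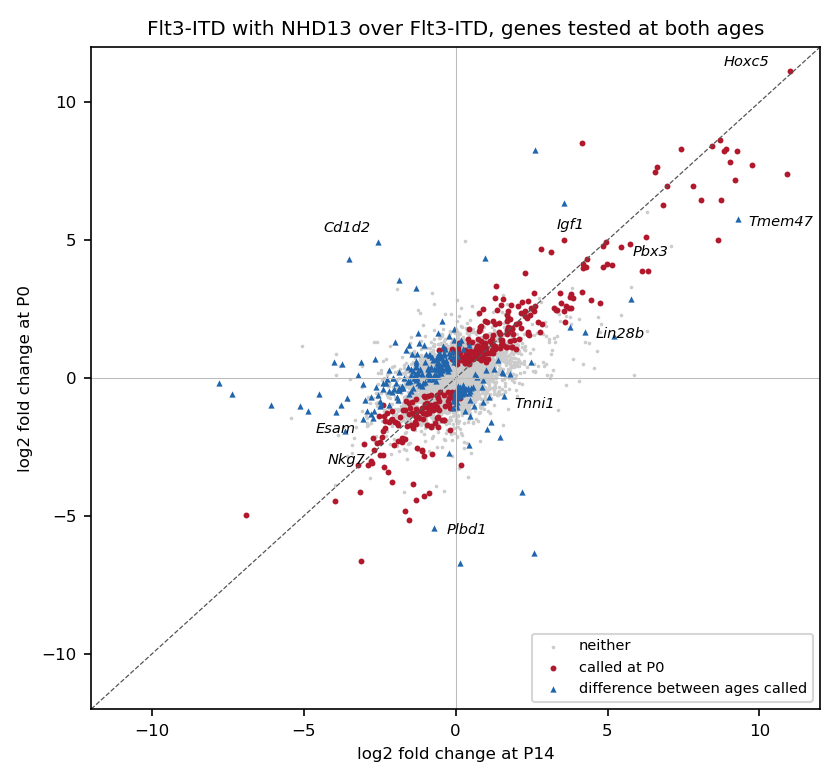
Log2 fold change of Flt3-ITD with NHD13 over Flt3-ITD at P0 (y axis) against that at P14 (x axis), with 1 point per gene tested at both ages, genes called at P0 in red and genes whose difference between ages was called as blue triangles; the dashed line marks equal values. Igf1 lies near the line at 4.78 at P0 and 4.84 at P14, and Lin28b lies below it at 1.66 and 4.26.

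The difference itself (P0 log2 fold change minus that at P14) was tested in a joint fit of 14984 genes, in which age and count table cannot be told apart. It passed with a larger value at P0 for 178 genes (1.19%) and a smaller one for 95 (0.634%). Of the 178, 123 were called lower at P14 and not called at P0. With only the 16 libraries of the 4 groups in the fit, 32 and 10 passed. Lin28b had the smallest adjusted p of the named genes: its difference was -2.62 (adjusted p = 1.65e-07). With NHD13 it was at 40.1 to 68.6 CPM at P0 and 50 to 60.1 CPM at P14, while in Flt3-ITD it was at 14.4 to 20.3 CPM at P0 and 1.85 to 4.11 CPM at P14. The lower Flt3-ITD level at P14 therefore went with the larger fold. Wild type followed Flt3-ITD, at 12 to 22.3 CPM at P0 and 2.76 to 3.35 CPM at P14.

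Treml1 followed the same order, higher by 1.85 at P0 and 3.77 at P14 (difference -1.95, adjusted p = 0.00385), at 8.66 to 13.7 and 12.2 to 17.7 CPM in Flt3-ITD with NHD13 against 2 to 3.9 and 0.896 to 1.46 CPM in Flt3-ITD. Tmem47 was higher at both ages, by 5.75 and 9.29 (difference -3.60, adjusted p = 0.0339), and lost the difference under 8 alternatives: without library 3 of Flt3-ITD with NHD13 at P14, without library 1, 2 or 3 of Flt3-ITD at P0 or library 1, 2 or 4 at P14, and with only the 16 libraries compared (up to 0.153). Mllt3 was called higher at P0 and not at P14 (log2 fold changes 1.01 and 0.03, difference 0.96, adjusted p = 0.00244). Csf1r and Esam were lower at both ages and by more at P14. Csf1r was at -1.20 and -2.67 (difference 1.44, adjusted p = 0.0105), and Esam at -1.24 and -3.93 (difference 2.67, adjusted p = 0.000427). In Flt3-ITD with NHD13, Esam was at 19.8 to 54 CPM at P0 and 1.85 to 4.33 CPM at P14, while in Flt3-ITD it was at 55.7 to 91 and 24.7 to 51.8 CPM.

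Id3 was lower at P0 by -2.73 and at -0.22 at P14 (difference -2.54, adjusted p = 0.0437), with P14 levels of 2.28 to 5.81 CPM in Flt3-ITD with NHD13 and 1.08 to 11.4 CPM in Flt3-ITD, all under the P0 level of Flt3-ITD. That difference was lost under 13 alternatives: without library 2, 3 or 4 at P0 or 2 or 3 at P14 of Flt3-ITD with NHD13, without library 1, 3 or 4 of Flt3-ITD at either age, without a filter and with only the 16 libraries compared (up to 0.174). B4galt6, a glycosphingolipid-forming enzyme, was at -0.71 at P0, not called, and at -3.58 at P14 (difference 2.85, adjusted p = 1.83e-06). Gm38393, an unnamed gene model, was at -0.96 at P0, a call lost without library 3 or 4 of Flt3-ITD with NHD13 and without library 1 or 4 of Flt3-ITD, with only the 8 libraries compared and with Y-linked libraries alone (up to 0.0836), and at -3.79 at P14 (difference 2.81, adjusted p = 0.00354). Tnni1, slow skeletal troponin I, was at -0.64 at P0, not called, and higher by 1.61 at P14 (difference -2.27, adjusted p = 0.000506).

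The 2 largest named differences, Tpm3-rs7 (7.78, adjusted p = 0.0183), a tropomyosin-related sequence, and Cd1d2 (7.47, adjusted p = 0.00354), rested on libraries that split within genotypes, and that of Tpm3-rs7 was lost with only the 16 libraries compared (adjusted p = 0.0702). At P0 Tpm3-rs7 had 3.08, 80.5, 81.7 and 89 CPM in Flt3-ITD with NHD13, against 2.77, 3.98, 3.03 and 3.13 CPM in Flt3-ITD and 1.95, 80.4, 102 and 2.88 CPM in wild type. The libraries high for it were the ones high for Cd1d2. At P14 Tpm3-rs7 had 3.3 to 4.14 CPM in Flt3-ITD with NHD13, against 3.11 to 87 CPM in Flt3-ITD.

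**Figure D5:**
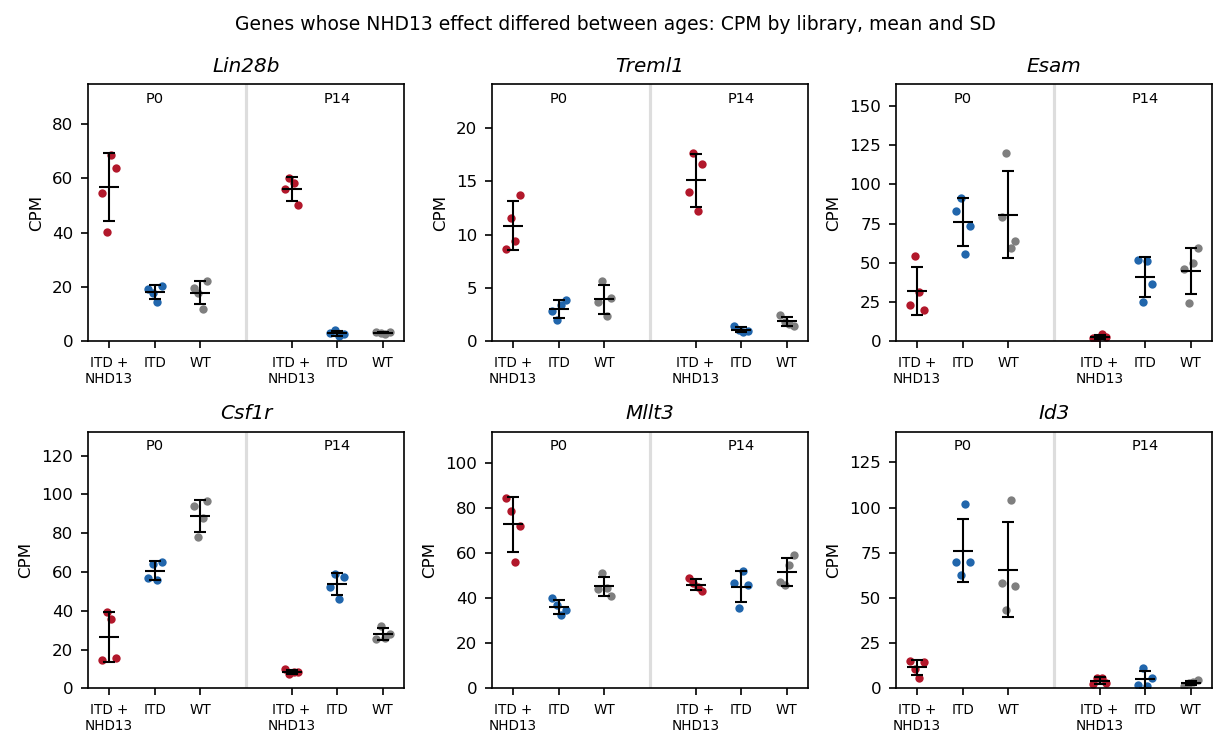
CPM of Lin28b, Treml1, Esam, Csf1r, Mllt3 and Id3 in each library of Flt3-ITD with NHD13, Flt3-ITD and wild type at P0 and P14, with 1 point per library, a bar at the mean and whiskers of 1 SD (n = 4). Lin28b stays between 40.1 and 68.6 CPM with NHD13 at both ages, while Flt3-ITD is at 14.4 to 20.3 CPM at P0 and 1.85 to 4.11 CPM at P14.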

How the data were processed

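The authors deposited tables of read counts per gene, 1 for P0 and 1 for P14. Per the submitters' processing notes, reads were counted with featureCounts 1.4.5, and the labels' protocols give a micro-scale RNA kit and SMART-amplified cDNA. The genome build, annotation and strand setting are not given in the sources used here. The P0 table held 40824 lines, of which 276 repeated identical ones were dropped, leaving 40548 gene IDs, and 4 of its columns matched no labelled sample and were not used. NHD13 samples at P0 are not analysed here. Names and positions came from GENCODE (GRCm38), which matched 40254 IDs, and promoter windows from RefSeq.

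Counts were fitted in R 4.3.3 with edgeR 4.0.16 (TMM, low counts filtered by filterByExpr, robust quasi-likelihood test, Benjamini-Hochberg adjustment) over all 12 P0 libraries in 3 groups, 14359 genes. P14 was fitted over 24 libraries, and the difference between ages over all 36. Where a library was left out, the remaining groups shared 1 estimate of the spread. Alternatives were DESeq2 1.42.0, other size factors, no filter, a replicate block, a sex term, subsets of libraries and each library left out. The subset of libraries with more Y-linked than Xist counts was chosen after seeing the data. Counting intervals are exact at 95% and cover counting error only; the floor is 3 counts over a group. Deviations of same-numbered libraries showed no common correlation, but 4 libraries in each group cannot show whether the numbers pair them. The main fit did not pair them.

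Named genes were the targeted genes, the HOX genes, the 10 highest and 10 lowest called, non-overlapping genes whose log2 CPM averaged 2 or more, up to 5 called members of each pathway list (the 2 most abundant where fewer than 2 were called), called and most abundant members of the cell type lists, and the 5 largest differences between ages each way. Kit, Cd34, H2-Ob, Meis1, Pbx2, the Mcm genes and the antisense HOX transcripts were named outside this rule, after their values were seen. Some genes that the rule or the lists include are not reported here. Members and lists (29, with 486 of 490 entries matched) were chosen with earlier results of these data known. The statistics were tested on simulated data.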

Additional observations from a re-analysis of the deposited data

Results flagged for a closer look

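For 18 named genes the log2 fold change of Flt3-ITD with NHD13 over Flt3-ITD differed between ages by edgeR's test of the difference (P0 minus P14, adjusted p in the joint fit). It was larger at P0 for Tpm3-rs7 by 7.78, Cd1d2 by 7.47, B4galt6 by 2.85, Gm38393 by 2.81, Limch1 by 2.74 (6.35 at P0 and 3.57 at P14), Esam by 2.67, Csf1r by 1.44, Mllt3 by 0.96, Ier3 by 0.84 (-0.15 and -1.01) and Klf6 by 0.73 (1.20 and 0.44). The difference was -4.72 for Plbd1 (-5.43 at P0 and -0.72 at P14), -3.60 for Tmem47, -2.62 for Lin28b, -2.54 for Id3, -2.27 for Tnni1, -1.95 for Treml1, -1.03 for Cenpe (-1.09 and -0.08) and -0.98 for Nolc1 (-0.93 and 0.02). In this test age and count table cannot be told apart.

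In 7 of 159 groups of 4 libraries 1 library lay far from the other 3; chance alone marks about 1 in 20. In Flt3-ITD with NHD13 these were Klf6 at 311 CPM in library 2 (others 154 to 171 CPM), Itgb3 at 6.16 CPM in library 1 (14.7 to 16.4 CPM), Cd79b at 315 CPM in library 2 (140 to 153 CPM) and Tpm3-rs7 at 3.08 CPM in library 1 (80.5 to 89.0 CPM). In Flt3-ITD they were Tpsb2 at 3642 CPM (432 to 726 CPM) and Cma1 at 1398 CPM (141 to 243 CPM), both mast cell proteases and both in library 3, and Pbx3 at 2.82 CPM in library 1 (2.24 to 2.29 CPM).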

How the results depend on the processing

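No called value reported changed its direction under any alternative run. The P0 counts of 250 higher and 163 lower calls were 482 and 399 with DESeq2, 874 and 957 in the joint fit of both ages, and 171 and 79 with only the 8 libraries compared. Leaving out 1 library gave 126 to 322 higher and 78 to 245 lower. DESeq2's size factors gave 234 and 175, no filter 206 and 183, and the replicate block 273 and 190. The difference between ages, 178 higher and 95 lower, was 285 and 189 with DESeq2, 137 and 63 without a filter, 209 and 141 with the replicate block and 32 and 10 with only the 16 libraries compared. Leaving out 1 library gave 97 to 301 and 29 to 228. Correlations of deviations between same-numbered libraries were 0.12, 0.08, -0.19 and -0.05, which cannot show whether libraries that share a number are pairs. Causes of these shifts were not tested. The lower depth of Flt3-ITD with NHD13 limits what can be seen in low genes.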
